A study of Mus musculus with 6 samples.

Results

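DNA replication and S-phase genes were examined in the optic nerves of mice after optic nerve crush (ON-CR) or sham surgery. The 49 genes were chosen by name, for the role of their proteins in copying DNA, from 25755 genes in the table, and all 49 were measured. Every mouse was NF1flox/flox;hGFAP-Cre, a genotype in which the human GFAP promoter drives Cre recombinase, which removes Nf1 from neuroglial progenitors and the cells that descend from them. Surgery took place when the animals were 6 weeks old. In the ON-CR group both nerves were crushed, whereas the nerves of sham mice were left intact. Whole optic nerves were collected at 12 weeks of age, which the labels give as 3 months. RNA of 3 sham mice (mice 1, 2 and 3) and 3 ON-CR mice (mice 4, 5 and 6) was sequenced in bulk, and the labels name 1 mouse for each library. No Nf1-intact mice were compared here, so both groups share the deletion.

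In each cell cycle, origin recognition proteins with CDC6 and CDT1 load the MCM2-7 helicase onto DNA in G1. CDC45 and the GINS complex then turn the loaded ring into a moving helicase. Polymerases, held by the PCNA clamp, copy both strands, while ribonucleotide reductase and thymidine enzymes supply the building blocks and chromatin factors restore nucleosomes and DNA methylation behind the fork. Many of these genes are transcribed late in G1 and in S phase under E2F transcription factors, although several of the proteins also serve DNA repair in cells that do not divide. In an adult optic nerve most glia are not cycling, and oligodendrocyte precursors and microglia are among the cells that can divide.

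Of the 49 genes, 2 rose after ON-CR and 0 fell at an adjusted p at or under 0.05. Clspn, which encodes the checkpoint and fork protein Claspin, rose 5.31-fold, and Rrm2, the small subunit of ribonucleotide reductase, rose 3.58-fold. The other 47 genes had adjusted p values from 0.123 to 0.981. Core parts of the replication machinery were among them, including Pcna, the 6 MCM2-7 genes, the 5 clamp loader genes and the primase genes. Fold changes came from limma on log2(value + 1), where a value is the normalized read count of a gene and 1 was added so that zeros could be used. On this scale the change of low genes is understated.

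Of all genes tested, 0.971% rose and 1.13% fell at this threshold. The genes that rose were 250 of 540 that passed, and 421 of 616 when libraries were scaled to their column totals. With 2 of 49, the replication genes were above the share that rose, and the number of genes behind it is small. The study's methods filter DESeq2 results on a p at or under 0.05 and at least a 2-fold change, after leaving out genes of low coverage. Its results section describes a stricter filter. Here the thresholds of the methods were put on unadjusted limma p values of all genes. By this 2-fold filter, 4 genes were higher in ON-CR mice (Clspn, Rrm2, Pole and Chaf1b) and 0 lower, against 3.17% of all genes higher and 1.49% lower. At an unadjusted p at or under 0.05 alone, 6 were higher (Clspn, Rrm2, Chaf1b, Uhrf1, Pole and Cdc45) and 2 lower (Rpa1 and Gins4), or 12.2% and 4.08% of the 49, beside 7.37% and 8.22% of all genes. All 3 ON-CR values lay above all 3 sham values for 10 of the 49, and below them for 2, while 10.5% and 11.0% of all genes did so. The median log2 fold change of the 49 was 0.20, beside 0.03 for all genes, and 34 of the 49 were positive (69.4%, against 52.8% of all genes). Exact permutation tests of 3 mice against 3 cannot give a p below 0.1, so limma, which pools the spread over genes, was used for the calls.

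**Figure D1:**
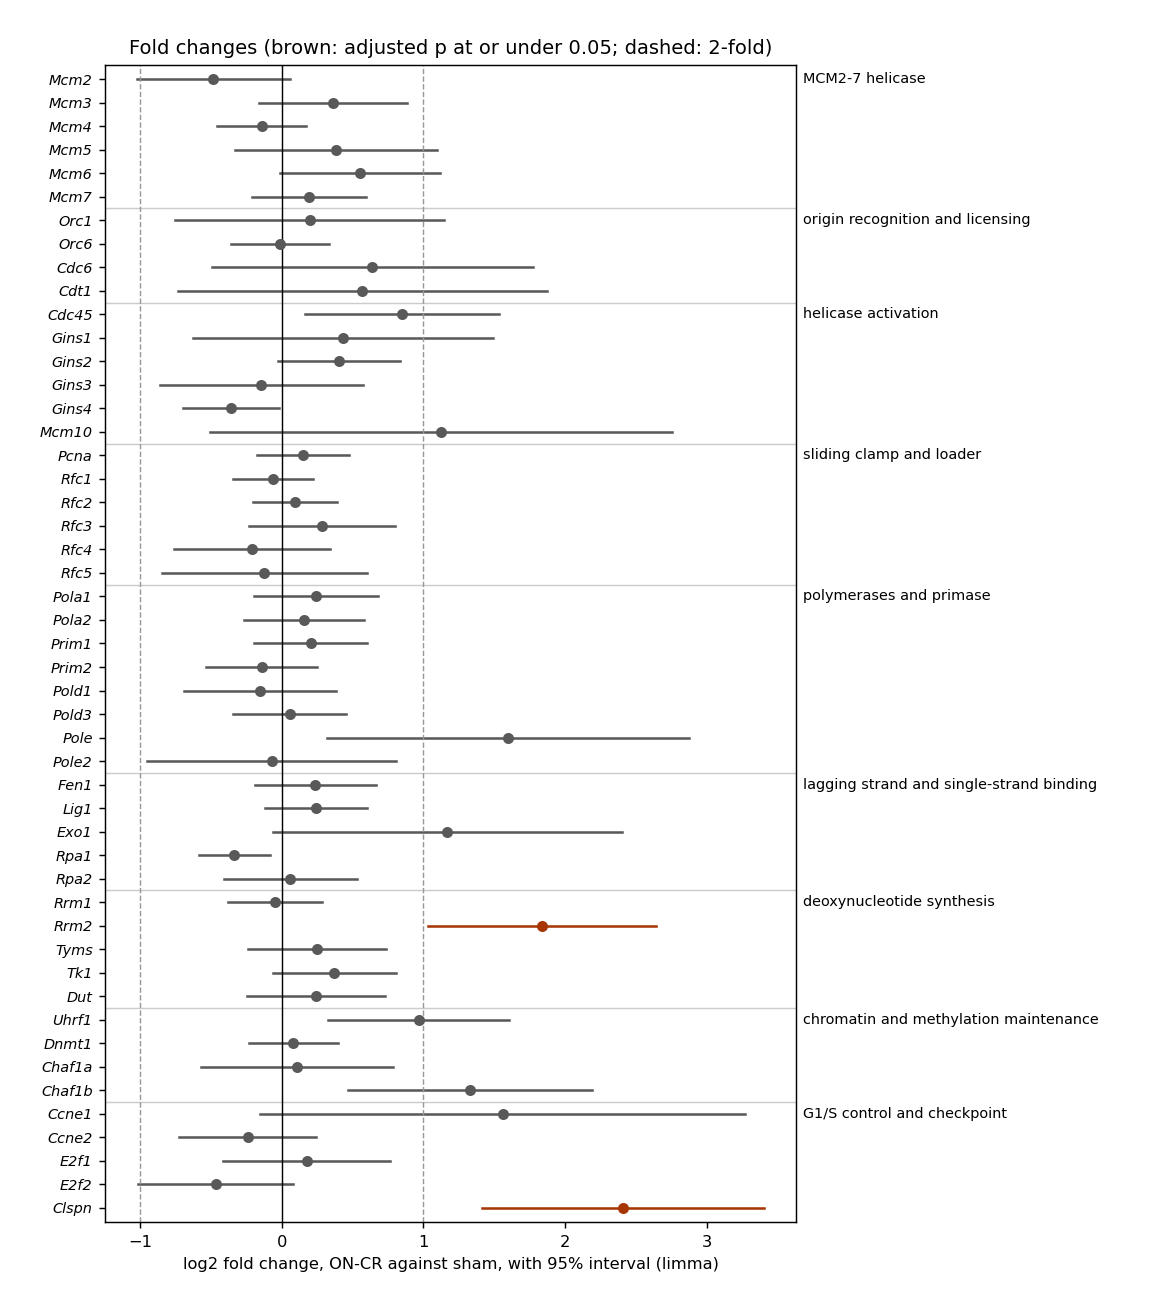
Log2 fold change of the 49 genes in ON-CR against sham mice (x axis, log2 of value + 1) with 95% intervals from limma, 1 gene per row and grouped by role. Brown marks Clspn and Rrm2, which passed the adjusted threshold, and dashed lines mark a 2-fold change in either direction.

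Libraries held 17413336 to 23619672 estimated reads on genes, and 1 read corresponded to a value of 0.885 to 1.06. The sham mean of the 49 genes ranged from 5.45 for Ccne1 to 2246 for Rpa1, and 7 genes had a sham mean under 25. None of the 49 was at or under 3 reads in every sham library. Xist was 2.14 to 30.9 in the sham group against 2708 to 6357 in the ON-CR group. Ddx3y was 1291 to 1645 in the sham group, whereas mouse 4 had 976, mouse 5 had 4.19 and mouse 6 had 0. All sham libraries thus carried Y-linked RNA with little Xist, mouse 4 carried both and mice 5 and 6 carried Xist, so sex and surgery cannot be told apart for any gene here. Whether the mouse 4 library holds RNA of a single animal was not tested, and counting it as 1 of 3 ON-CR mice rests on its label. The study's methods for PCR of optic nerve RNA describe more than 1 mouse per sample, and those for sequencing do not say. Pola1 was the only one of the 49 on chromosome X. Defining markers of optic nerve glia were abundant in all libraries, with a summed value of 186700 to 225500 in sham and 259700 to 294400 in ON-CR mice for 8 astrocyte markers. Of these 8, 5 had a positive fold change. Gfap was 1.56-fold higher with no overlap and an adjusted p of 0.0859, and S100b fell, with an adjusted p of 0.0185. In a bulk sample, more cells of a type and more RNA per cell cannot be told apart.

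The stretches before the start sites of 5 genes are shown because many S-phase genes carry E2F sites there. They cover up to 200 bases before the RefSeq start, ending before the annotated gene start, in GRCm38.p6 (mm10), and are written 5′ to 3′ on the gene's strand. Capitals mark the E2F letters that were searched. Rrm2 (chr12:24708054-24708240, plus strand) and Clspn (chr4:126556780-126556934, plus strand) are the genes that rose. Mcm5 (chr8:75109309-75109508, plus strand), Mcm6 (chr1:128359706-128359905, minus strand) and Pola1 (chrX:93632156-93632355, minus strand) carry the letters and did not pass the test.
Rrm2: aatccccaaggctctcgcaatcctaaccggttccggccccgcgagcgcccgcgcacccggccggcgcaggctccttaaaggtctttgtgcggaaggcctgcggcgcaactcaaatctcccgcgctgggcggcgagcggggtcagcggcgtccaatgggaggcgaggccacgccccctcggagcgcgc
Clspn: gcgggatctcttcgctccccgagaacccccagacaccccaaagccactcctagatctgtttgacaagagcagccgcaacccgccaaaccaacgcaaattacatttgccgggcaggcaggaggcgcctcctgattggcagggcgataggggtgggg
Mcm5: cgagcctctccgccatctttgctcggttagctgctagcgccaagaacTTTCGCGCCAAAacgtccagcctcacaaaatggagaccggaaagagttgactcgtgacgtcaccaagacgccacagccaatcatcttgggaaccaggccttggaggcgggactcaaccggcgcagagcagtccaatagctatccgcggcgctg
Mcm6: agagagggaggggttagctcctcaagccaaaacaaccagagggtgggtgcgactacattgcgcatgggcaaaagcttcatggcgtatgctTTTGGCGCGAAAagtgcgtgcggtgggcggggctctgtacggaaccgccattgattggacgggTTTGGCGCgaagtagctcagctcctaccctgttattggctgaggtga
Pola1: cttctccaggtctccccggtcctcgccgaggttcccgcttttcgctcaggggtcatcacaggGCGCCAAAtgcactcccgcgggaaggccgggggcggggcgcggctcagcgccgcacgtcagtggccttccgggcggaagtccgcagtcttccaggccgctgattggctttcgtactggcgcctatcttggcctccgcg

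RefSeq windows from 250 bases before to 50 bases after a start were found for 40 of the 49 genes. The letters were TTTCCCGC, TTTCGCGC, TTTGCCGC and TTTGGCGC, read on both strands, and matches may overlap each other, as in Mcm5 and Mcm6. At least 1 match was present in 18 of the 40 genes (45.0%), in 12 of 39 other replication genes with a window (30.8%) and in 572 of 14328 genes of the table with a window (4.0%). Of all 32851 windows, 2.3% held a match, and 6 of the 40 genes have several windows. In Clspn the match began 21 bases after the start, outside the printed stretch. In Rrm2 these letters were not in the window.

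Genes with and without the letters were set side by side, with no test. The 18 genes with a match had a median log2 fold change of 0.24, 14 of them were positive and 1 rose (Clspn). The 22 genes with a window and no match had a median of 0.17, 15 were positive and 1 rose (Rrm2). A match of letters is a description of sequence and not evidence of binding.

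Both genes that rose were higher in all 3 ON-CR mice than in any sham mouse. Clspn (chr4:126556935-126593903, plus strand) had values of 6.37, 14.2 and 8.45 in sham mice 1, 2 and 3. ON-CR mice 4, 5 and 6 had 36.9, 49.3 and 82.0. The lowest ON-CR value had more reads than the highest sham value, with 37 estimated reads against 16. The log2 fold change was 2.41 with a standard error of 0.45 and an adjusted p of 0.0256. Clspn did not pass in every alternative. Without ON-CR mouse 6 the change was 2.10 and the adjusted p 0.182, and without sham mouse 1, 2 or 3 the adjusted p was 0.0987, 0.0587 and 0.0870. With no mean-variance trend in limma it was 0.152.

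Rrm2 (chr12:24708241-24714146, plus strand) was 54.1, 60.2 and 95.7 in the sham group against 193, 171 and 446 in the ON-CR group. The groups did not overlap, and ON-CR mouse 6 stood well above the other ON-CR mice. The log2 fold change was 1.84 with a standard error of 0.36 and an adjusted p of 0.0312. Without ON-CR mouse 6 it was 1.41 with an adjusted p of 0.142, and without sham mouse 1, 2 or 3 the adjusted p was 0.136, 0.161 and 0.0593. With no trend it was 0.227. Neither Clspn nor Rrm2 overlaps another annotated gene, and a partial copy of Rrm2, Gm48455, shares 95.5% of bases over 419 bases and is not among the genes tested.

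**Figure D2:**
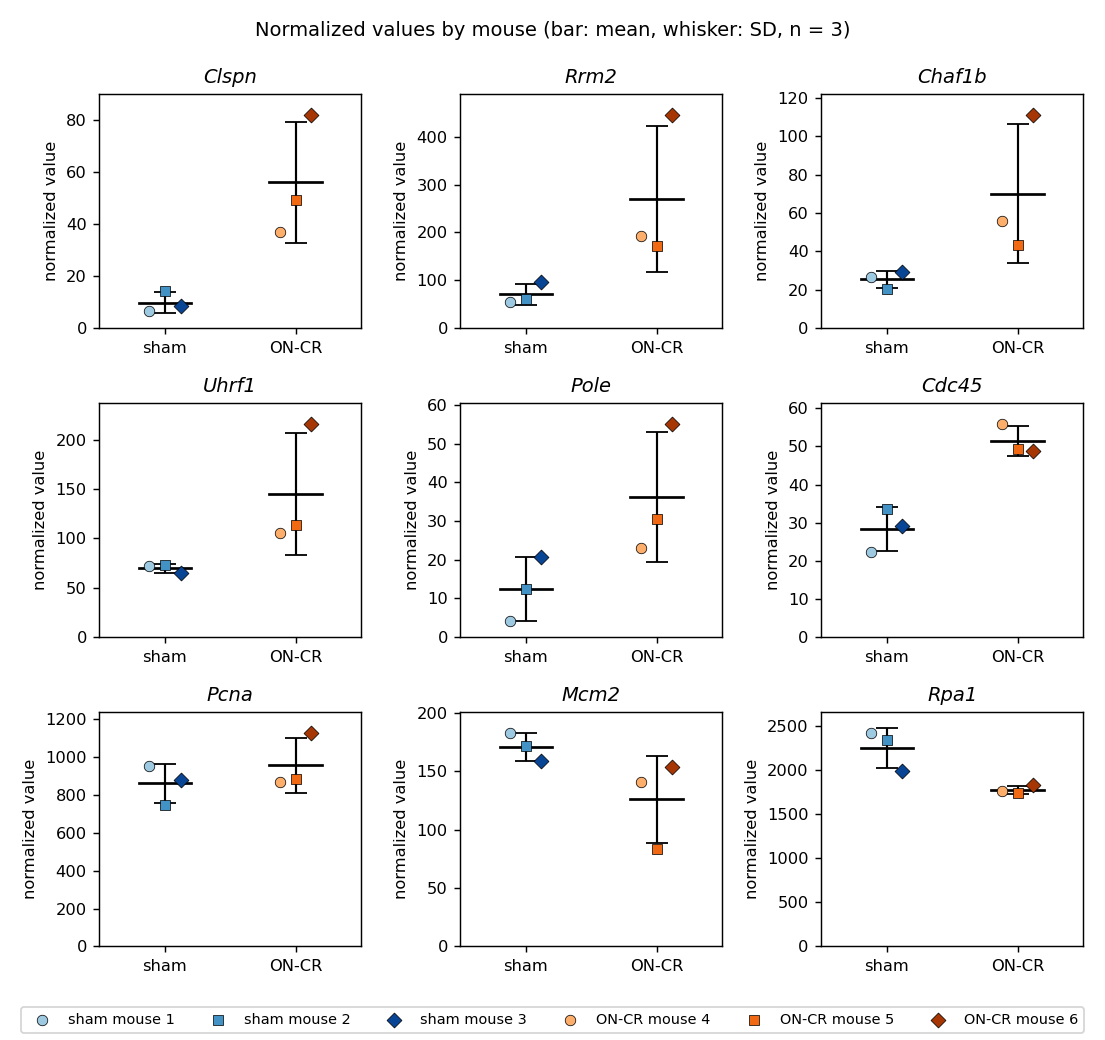
Normalized values (y axis, from 0) of 9 genes in 3 sham and 3 ON-CR mice, 1 point per mouse, with the mean as a bar and the SD as a whisker. Clspn, Rrm2, Chaf1b, Uhrf1, Pole and Cdc45 have no ON-CR mouse below a sham mouse, Pcna overlaps, and Mcm2 and Rpa1 have every ON-CR mouse below every sham mouse.

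Of the genes of deoxynucleotide synthesis, the 4 other than Rrm2 did not pass the test. Rrm1, the large subunit that pairs with the product of Rrm2, was 490 to 676 in the sham group against 523 to 605 in the ON-CR group, with a log2 fold change of -0.05 and a 95% interval from -0.38 to 0.28. Tk1, the thymidine kinase of dividing cells, was 119, 137 and 157 in the sham group against 175, 155 and 206 in the ON-CR group. Mouse 5 lay inside the sham range for Tk1, and the log2 fold change of 0.37 had an adjusted p of 0.398. Tyms, thymidylate synthase, and Dut, which removes dUTP, had log2 fold changes of 0.25 and 0.24, and both were highest in ON-CR mouse 6.

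The MCM2-7 genes encode the ring that unwinds DNA. Their log2 fold changes ran from -0.48 for Mcm2 to 0.55 for Mcm6, and 0 of the 6 passed the test. Mcm2 was 183, 172 and 159 in the sham group against 141, 83.9 and 154 in the ON-CR group. All ON-CR values were below all sham values, with mouse 5 lowest, yet the adjusted p was 0.376 and the 95% interval ran from -1.02 to 0.06. Mcm3, Mcm5, Mcm6 and Mcm7 had log2 fold changes of 0.36, 0.38, 0.55 and 0.19 and were each highest in ON-CR mouse 6, whereas Mcm4 was at -0.14. Reads of Mcm7 are uncertain, since Ap4m1 and Cops6 overlap it on the other strand, the library kit does not mark strand, and the pseudogene Gm5487 shares 97.7% of bases over 2157 bases.

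Of the 4 genes of origin recognition and licensing, 0 passed the test. Orc6 was 316 to 363 in the sham group against 301 to 396 in the ON-CR group, with a log2 fold change of -0.01, and Orc1, the first subunit of the origin recognition complex, had 16 to 23 estimated reads in the sham group against 16 to 30 in the ON-CR group. Cdt1, a licensing factor, was 17.0, 42.5 and 18.8 in the sham group against 61.8, 13.6 and 54.0 in the ON-CR group. Mouse 5 was the lowest of all 6 mice for Cdt1, and the 95% interval of its log2 fold change of 0.57 ran from -0.73 to 1.87. Without mouse 5 it was 1.24. Cdc6, the ATPase that acts with it, had a log2 fold change of 0.64 that was 0.12 without mouse 6.

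Among genes of helicase activation, Cdc45 was 22.3, 33.6 and 29.1 in the sham group against 55.8, 49.3 and 48.8 in the ON-CR group. Its groups did not overlap, the 3 ON-CR mice were close together, and mouse 6 was the lowest of them. The log2 fold change was 0.85 with a standard error of 0.31 and an adjusted p of 0.210, and Ufd1 overlaps it on the other strand. The 4 GINS genes, whose products form 1 complex, ranged from -0.36 for Gins4 to 0.43 for Gins1 on the log2 scale. Gins4 was 414 to 550 in the sham group against 361 to 420 in the ON-CR group, so its groups overlapped, and its adjusted p was 0.291. Mcm10, which helps start the fork, had 3, 16 and 5 estimated reads in the sham group against 16, 5 and 33 in the ON-CR group. Its log2 fold change of 1.12 was 1.78 without mouse 5 and 0.53 without mouse 6.

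Of the 6 genes of the clamp and its loader, 0 passed the test. Pcna, the sliding clamp, was 955, 748 and 879 in the sham group against 866, 882 and 1125 in the ON-CR group. Its groups overlapped, and the log2 fold change of 0.15 had a 95% interval from -0.18 to 0.48, which leaves out a 2-fold change in either direction. Rfc1 to Rfc5, the loader subunits, ranged from -0.21 for Rfc4 to 0.28 for Rfc3. Per kilobase of the longest coding transcript, Pcna was the most abundant of the 49 genes, at a mean of 567 in sham and 631 in ON-CR mice, and Mcm10 and Exo1 were the lowest in sham mice, both at 1.51. The pseudogene Pcna-ps2, with 99.2% of bases shared over 781 bases, was at 54.0 to 64.0 in sham and 63.9 to 87.5 in ON-CR mice.

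Polymerase and primase genes gave 1 gene past the 2-fold filter. Pole, the catalytic subunit of the leading strand polymerase, was 4.25, 12.4 and 20.7 in the sham group against 22.9, 30.4 and 55.0 in the ON-CR group. The highest sham mouse, with 22 estimated reads, was next to the lowest ON-CR mouse, with 23. The log2 fold change was 1.60 with a standard error of 0.57 and an adjusted p of 0.209. Pola1, Pola2, Prim1, Prim2, Pold1 and Pold3 lay between -0.15 and 0.24, and Pole2, the partner subunit of Pole, was at -0.07. Pola2 and Prim1 had no overlap between groups but differed little, with log2 fold changes of 0.16 and 0.20.

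Genes of the lagging strand and of single-strand binding included the most abundant by read count. Rpa1, the large subunit of replication protein A, was 2413, 2340 and 1985 in the sham group against 1762, 1737 and 1823 in the ON-CR group. Every ON-CR value was below every sham value, with a log2 fold change of -0.34, a standard error of 0.11 and an adjusted p of 0.179. Rpa2, its partner, was at 0.06 with overlapping groups. Lig1, the ligase that joins Okazaki fragments, had a log2 fold change of 0.24 with no overlap, and Fen1, which trims them, was also at 0.24. Exo1, an exonuclease, had 6 to 22 estimated reads in the sham group against 13 to 41 in the ON-CR group, a log2 fold change of 1.17 and an adjusted p of 0.345.

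All 4 genes of chromatin and methylation maintenance were positive, and 0 passed the test. Uhrf1, which brings DNMT1 to newly copied DNA, was 72.2, 72.6 and 64.7 in the sham group against 106, 113 and 216 in the ON-CR group. Sham mice were close together, every ON-CR mouse was higher, and the log2 fold change was 0.97 with a standard error of 0.29 and an adjusted p of 0.128. Chaf1b, a subunit of the histone chaperone CAF-1, was 26.5, 20.4 and 29.1 in the sham group against 55.8, 43.0 and 111 in the ON-CR group. Its groups did not overlap either, with a log2 fold change of 1.33, a standard error of 0.39 and an adjusted p of 0.123. Chaf1a, the large subunit of the same chaperone, was at 0.11 and Dnmt1, the maintenance methyltransferase, at 0.08. The pseudogene Gm5648 shares 98.3% of bases with Uhrf1 over 1590 bases and was at 2.66 to 7.34 across the 6 libraries.

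Regulators of the G1/S step apart from Clspn did not pass the test. Ccne1, cyclin E1, was 2.12, 13.3 and 0.939 in the sham group against 15.0, 7.34 and 15.6 in the ON-CR group. With 1 to 15 estimated reads per library and sham mouse 2 inside the ON-CR range, its log2 fold change of 1.56 had a standard error of 0.77 and an adjusted p of 0.366. It was 2.40 without sham mouse 2 and 0.96 without sham mouse 3. Ccne2, cyclin E2, was more abundant, at 223 to 259 in sham and 154 to 278 in ON-CR mice, and its log2 fold change was -0.24. E2f1, an activating E2F factor, was 56.2, 55.8 and 49.8 in the sham group against 54.8, 54.5 and 75.8 in the ON-CR group. Only mouse 6 lay outside the sham range for E2f1, and the log2 fold change was 0.18 with a 95% interval from -0.41 to 0.76. E2f2 had a log2 fold change of -0.47 with an adjusted p of 0.399.

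Within-library ratios of partner genes are given for 6 pairs, with no test, since the pairs were picked after their values were seen. The log2 ratio of Rrm2 to Rrm1 within a library was -3.06 ± 0.53 (SD, n = 3) in the sham group against -1.18 ± 0.64 in the ON-CR group. The ratio of Chaf1b to Chaf1a went from -1.15 ± 0.66 to 0.07 ± 0.50, and that of Pole to Pole2 from -1.39 ± 1.34 to 0.28 ± 0.25. In both pairs the groups nearly met. The highest sham ratio was -0.493 for Chaf1b to Chaf1a and -0.018 for Pole to Pole2, beside lowest ON-CR ratios of -0.463 and -0.011. These ratios are not divided by transcript length, so only the difference between groups is read from them. The ratio of E2f1 to E2f2 was 0.64 higher in ON-CR mice, and that of Ccne1 to Ccne2 1.80 higher with overlapping groups. Mcm2 against the mean of Mcm3 to Mcm7 was 0.75 lower on the log2 scale in ON-CR than in sham mice (-1.10 ± 0.21 against -0.35 ± 0.15), and the groups did not overlap.

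**Figure D3:**
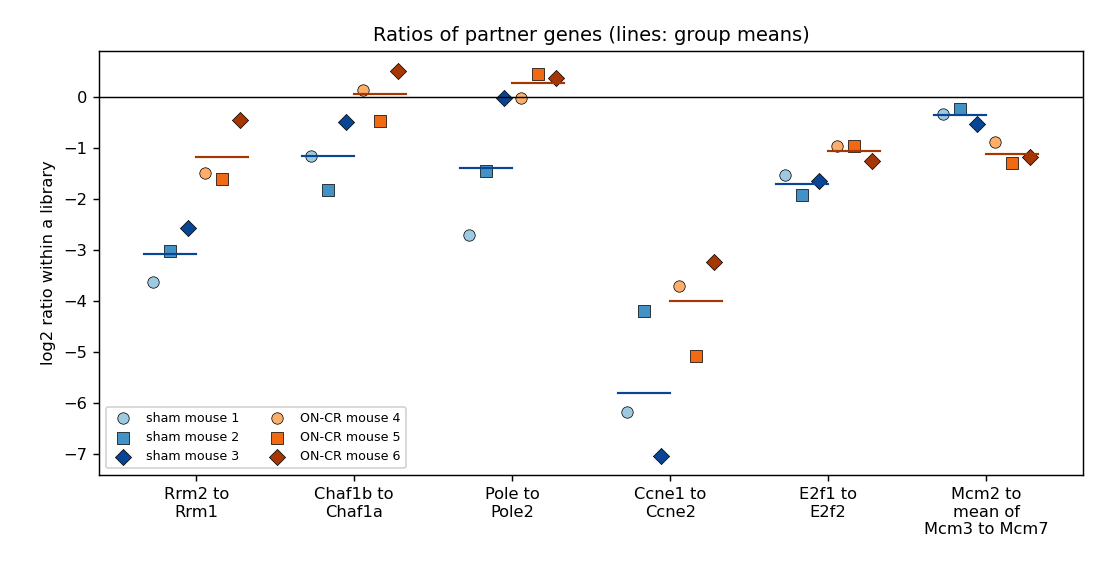
Log2 ratio of the normalized values of partner genes within each library (y axis), 1 point per mouse, for 6 pairs (x axis), with lines at the group means. The pairs were picked after their values were seen. Groups do not overlap for any pair except Ccne1 to Ccne2, although they nearly meet for Chaf1b to Chaf1a and Pole to Pole2. Mcm2 against Mcm3 to Mcm7 is the 1 pair of the 6 whose ratio was lower in ON-CR mice.

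Fold changes were larger among low genes. The 12 genes with a mean value under 50 over the 6 libraries had a median log2 fold change of 0.99, and 11 of them were positive. The 37 genes with a mean of 50 or more had a median of 0.11, and 23 were positive. Medians of all genes in the same ranges were 0.15 and -0.01, and 58.9% and 48.1% of those genes were positive. The 95% interval stayed within 2-fold in either direction for 32 of the 49 genes, so a larger change was outside the interval for these. For the other 17 it did not. Among these, Clspn (1.413 to 3.405) and Rrm2 (1.035 to 2.644) had intervals on the log2 scale wholly above a 2-fold rise. For the rest of the 17, whether the change was larger could not be told with these libraries. Of all 25755 genes, 12322 had an interval within 2-fold. Reads of several genes may be shared with a neighbour, because strand was not kept. Exons of Orc1, Orc6, Gins2, Rfc2, Rfc4, Rfc5, Pole, Fen1, Lig1, Tk1, Chaf1a and Ccne2 overlap a gene on the other strand, and those of Pole2 and Rpa1 a gene on the same strand. Cdc6 and Rfc5 have near-identical copies in the table, Gm9430 and Gm12870.

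The 3 ON-CR mice were unlike each other. ON-CR mouse 6 had the highest value of all 6 libraries for 34 of the 49 genes (69.4%), while it was highest for 20.0% of all genes. The median log2 ratio of the 49 genes to the sham mean was 0.06 in mouse 4, 0.02 in mouse 5 and 0.49 in mouse 6. Mouse 5 was the lowest of the ON-CR mice for 31 of the 49, and for 36.1% of all genes. Without mouse 6, the median log2 fold change of the 49 genes was 0.08 and 0 genes passed the adjusted threshold. Over all genes, the same omission cut the number passing from 540 to 67.

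**Figure D4:**
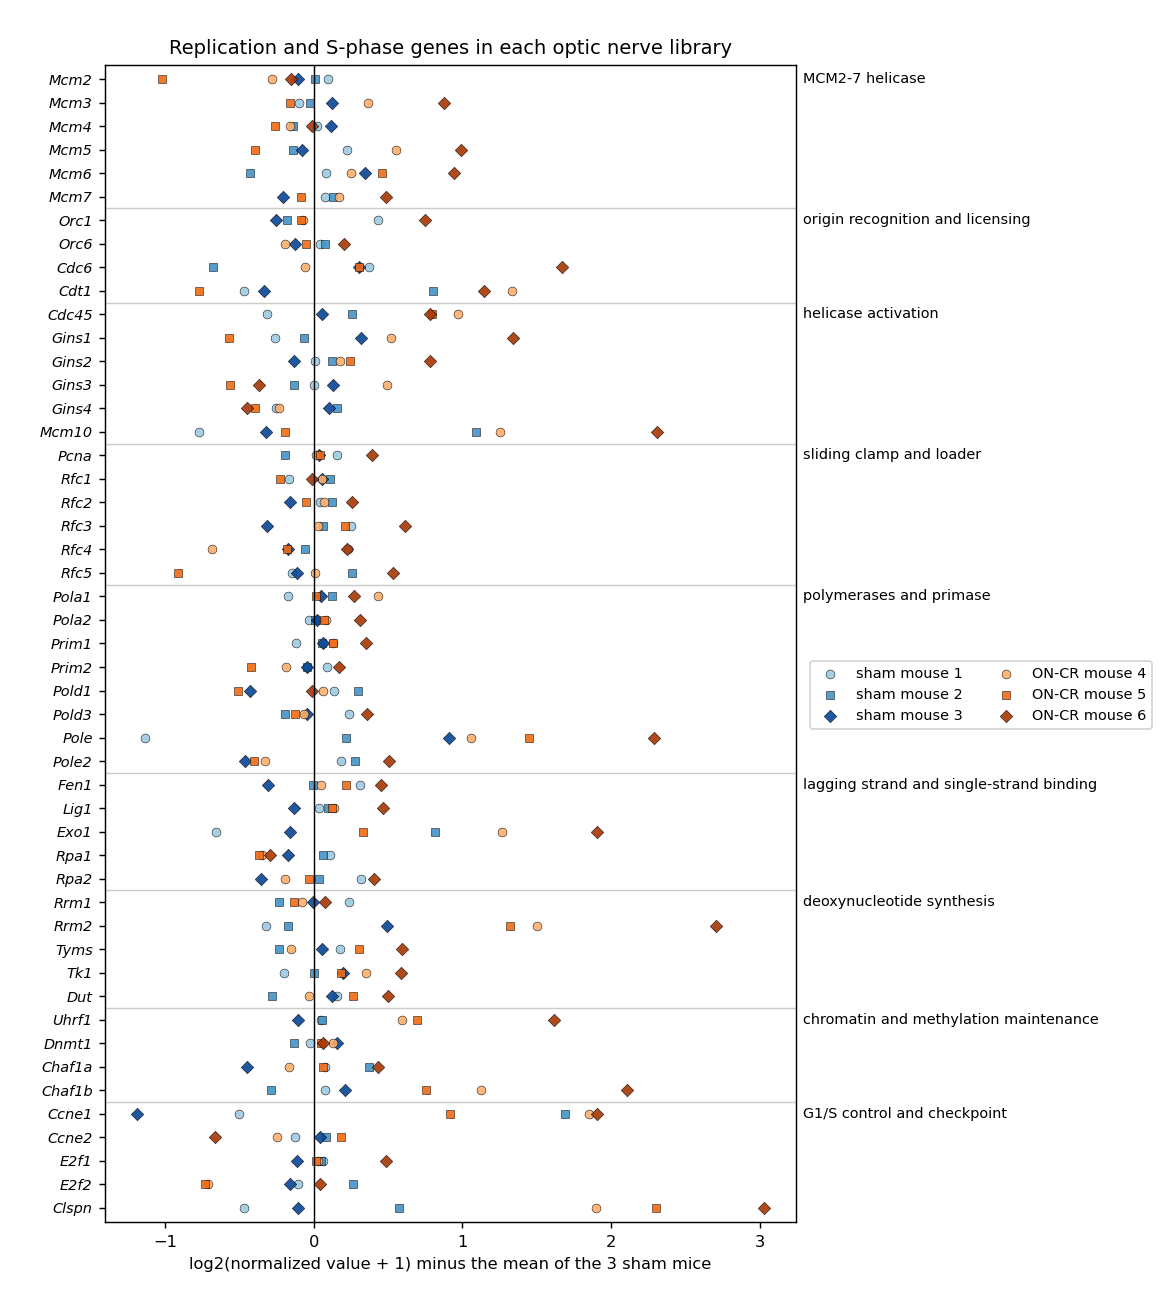
Log2(value + 1) of each of the 49 genes in each library minus the mean of the sham mice (x axis), 1 row per gene, blue for sham and orange to brown for ON-CR mice. ON-CR mouse 6 (dark brown diamonds) is the rightmost point for 34 of the 49 genes, and mouse 5 (orange squares) has a median of 0.02.

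Summed markers of B and plasma cells and of T cells were also highest in mouse 6, whereas those of microglia were not. The summed value of 8 B and plasma cell markers was 98670 in mouse 6 against 394 to 2430 in the other mice, 6 of the 8 had a positive fold change, 0 passed the test, and Ms4a1 was at 0 in mouse 4. Igkc, the immunoglobulin kappa constant gene, made up 83710 of that sum, and Jchain 12740. Ighm was highest in sham mouse 1, at 715.2 against 609.5 in mouse 6. For 7 T cell markers the sum was 1354 in mouse 6 and 212 to 580 elsewhere, with 7 of 7 positive and 0 past the test. For 9 microglia markers the sums were 14260 to 19230 in sham and 17430 to 25560 in ON-CR mice, with mouse 4 at 25560 and mouse 6 at 25450. Of the 9, 6 were positive and 1, Aif1, was higher at an adjusted p of 0.0260. Tmem119, P2ry12 and Sall1 had log2 fold changes of -0.27, -0.35 and -0.07. For Tmem119 every ON-CR value was below every sham value, with an adjusted p of 0.351. The 6 oligodendrocyte precursor markers summed to 9757 to 10200 in sham and 10220 to 11100 in ON-CR mice, although 3 of the 6 had a negative fold change. Lhfpl3 rose, with a log2 fold change of 0.61 and an adjusted p of 0.0393, while Pdgfra, Gpr17 and Neu4 were at -0.29, -0.26 and -0.40, with every ON-CR value below every sham value and adjusted p values of 0.294, 0.258 and 0.107. All 9 oligodendrocyte markers had negative fold changes and 6 passed the test, with sums of 1284000 to 1838000 in sham and 626600 to 740800 in ON-CR mice. Markers of tissue outside the nerve were uneven across libraries. The 6 airway and surface epithelium markers summed to 54.9 to 7831 in sham mice and 3.99 to 6056 in ON-CR mice. They were high in sham mouse 3 (7831) and ON-CR mice 5 (5146) and 6 (6056), where most of the sum was Bpifa1, a secreted airway protein, which was at 0 in sham mouse 2 and ON-CR mouse 4. The 6 erythroid markers summed to 269400 to 509300 in sham and 137000 to 378100 in ON-CR mice, and 0 of the genes of either list passed the test. The part of these cell types and of other tissue in the replication genes, mouse 6 included, was not tested.

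**Figure D5:**
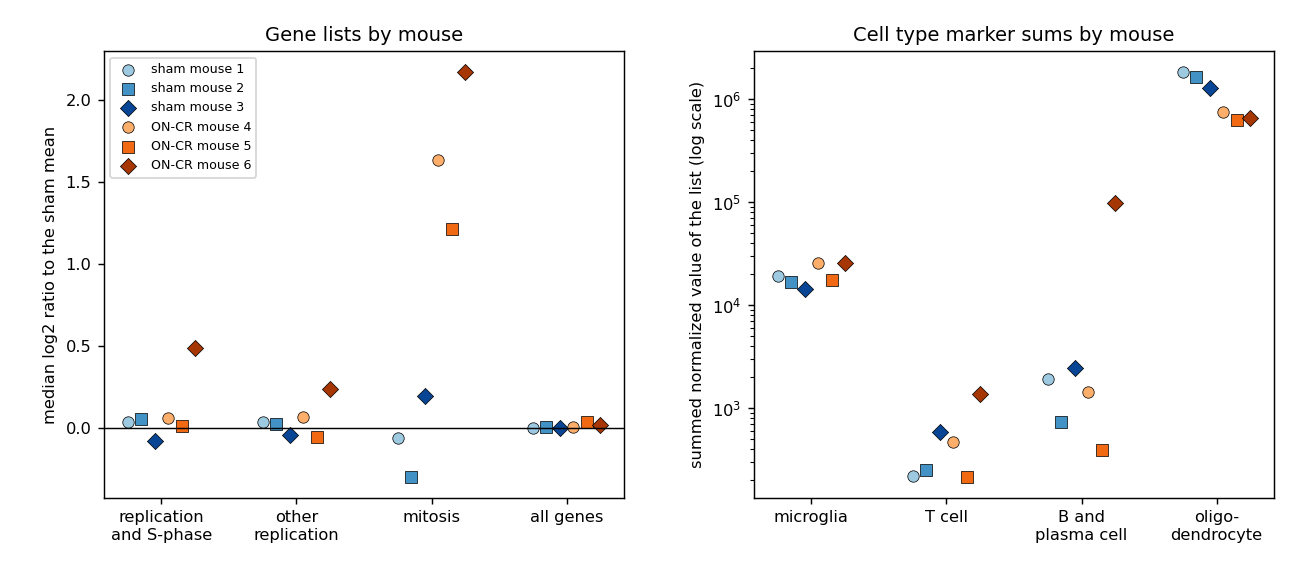
Left, median log2 ratio to the sham mean (y axis) of the 49 replication and S-phase genes, 48 other replication genes, 10 mitosis genes and all genes, 1 point per mouse. Right, summed normalized value of marker lists (log scale), where ON-CR mouse 6 stands at 98670 for B and plasma cells.

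Genes of mitosis were set beside the replication genes, since both mark cycling cells. Of 10 mitosis genes, 5 rose at an adjusted p at or under 0.05, with a median log2 fold change of 1.71, and the groups did not overlap for 9. Top2a, the topoisomerase that untangles chromosomes, was 86.0, 109 and 113 in the sham group against 341, 300 and 484 in the ON-CR group. It rose with a log2 fold change of 1.84, a standard error of 0.22 and an adjusted p of 0.00307. Mki67, the gene of the Ki67 antigen, rose by 1.89 and Cdk1, the mitotic kinase, by 1.60 on the log2 scale, with adjusted p values of 0.0421 and 0.0288. Mki67 did not pass without sham mouse 1 or 2 or ON-CR mouse 4 or 6 (adjusted p of 0.0804 to 0.235), and Cdk1 without any mouse but mouse 5 (0.0693 to 0.183), while Top2a passed without each mouse. With no mean-variance trend in limma, Top2a, Mki67 and Cdk1 did not pass, with adjusted p values of 0.132, 0.242 and 0.163. In mice 4, 5 and 6 the median log2 ratio of the mitosis genes to the sham mean was 1.64, 1.22 and 2.17, so mouse 6 was again highest, and mice 4 and 5 were also above every sham mouse. The difference between the 2 lists was not tested, because the genes of each were chosen with results known.

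In the other 48 replication genes, 1 rose and 0 fell, with a median log2 fold change of 0.05 and 28 positive. Ticrr, whose product helps fire origins, was 1.06, 0 and 0 in the sham group against 14.0, 8.39 and 12.5 in the ON-CR group. Against a floor of 3 reads per sham library, it was at least 4.02-fold higher, with an adjusted p of 0.0336, and Kif7 overlaps it on the other strand. Its groups did not overlap, and without sham mouse 1, 2 or 3 or ON-CR mouse 4 or 6 its adjusted p was 0.0664 to 0.159. The next genes by p did not pass, and their groups did not overlap. Hells, a chromatin remodeller, was 23.4, 38.1 and 59.2 in sham and 70.8, 88.1 and 115 in ON-CR mice, with a log2 fold change of 1.23 and an adjusted p of 0.124. Pold2, a subunit of polymerase delta, and Rbl2, a relative of the retinoblastoma protein, were at -0.36 and -0.35, with every ON-CR value below every sham value and adjusted p values of 0.192 and 0.206.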

How the data were processed

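The authors aligned and quantified reads with DRAGEN software, assigned them to Ensembl models of mm10 and median-normalized gene counts in Partek Flow 10.0. What they deposited is a signal in normalized units: each gene's estimated counts over a scaling factor of the library. Dividing by the value of 1 read put 47.7% to 54.5% of values within 0.02 of a whole read, so no count model was run and the recovered reads served for depth only. Floors of reads cover counting error only, whereas the 95% intervals are from limma and rest on the spread between mice.

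Values were tested as log2(value + 1) in limma 3.58.1 (R 4.3.3) allowing the variance to follow mean expression, and p values were adjusted by Benjamini and Hochberg's method over all 25755 genes. The test was first run on simulated data with known 4-fold changes, placed only in genes with a mean value of 50 or more. How it performs for lower genes, such as Clspn and Ticrr, was therefore not tested. Libraries of a group differed beyond sampling noise. The labels name a separate mouse for each library, with numbers that differ between groups, so nothing was paired.

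The 49 genes, the other lists, the tests and the alternatives were chosen with earlier results of these data known. All 49 genes were named by role, with values per mouse for those with an adjusted p at or under 0.05 and for Pcna, Mcm2, Rrm2, Tk1, Ccne1, E2f1 and Cdt1. Per-mouse values of Cdc45, Pole, Rpa1, Uhrf1, Chaf1b and Mcm10 were added after they were seen. Other replication genes were named at an adjusted p at or under 0.05, with the next 3 by p. Positions are from GENCODE vM21 (GRCm38). Sequencing of brain-injured mice from the same study was not analysed here.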

Additional observations from a re-analysis of the deposited data

How the results depend on the processing

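With 3 mice per group, the calls changed when 1 library was left out. Over all genes, the number passing fell from 540 to 192, 123 and 258 without sham mouse 1, 2 or 3. Without ON-CR mouse 6 it fell to 67. The part of the smaller group size in these losses was not tested. The number of replication genes that rose at an adjusted p at or under 0.05 ranged from 0 to 2 when 1 mouse was left out, and was 0 without sham mouse 1, 2 or 3 or ON-CR mouse 6. It was 0 with no mean-variance trend, where 7 of all genes passed in place of 540, and 2 under every other alternative. By the 2-fold filter the number ranged from 2 (without ON-CR mouse 6) to 9 (without ON-CR mouse 5). The number with every ON-CR value above every sham value ranged from 10 to 20 (without ON-CR mouse 5). The share of all genes that did so also grew, from 10.5% with all mice to 17.6% without ON-CR mouse 5. Other replication genes that rose numbered 0 with a pseudocount of 0.1 and with no trend, and 0 to 1 with 1 mouse left out, and for these losses the cause was not tested. They numbered 0 with a mean value of at least 10, a filter that removed Ticrr before the test.

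Scaling by column total moved the median of all genes from 0.03 to 0.15, that of the 49 genes to 0.32, the number of them with every ON-CR value above every sham value to 15 (16.6% of all genes) and the genes higher among all that passed from 250 of 540 to 421 of 616. Over 15 alternatives (14 for Ccne1, which the filter on the mean removed), 36 of the 49 genes kept their sign and 13 did not, and none of the 13 had passed the test. Upper-quartile scaling put Orc6 at 0.018. Column-total scaling put Orc6 at 0.12, Rfc1 at 0.065, Rfc5 at 0.005, Pole2 at 0.052 and Rrm1 at 0.082. With 1 mouse left out, log2 fold changes spanned -0.08 to 0.41 for Orc1, -0.12 to 0.077 for Orc6, -0.024 to 0.93 for Gins1, -0.47 to 0.062 for Gins3, -0.15 to 0.02 for Rfc1, -0.43 to 0.022 for Rfc4, -0.45 to 0.27 for Rfc5, -0.37 to 0.024 for Pold1, -0.10 to 0.18 for Pold3, -0.36 to 0.092 for Pole2, -0.12 to 0.22 for Rpa2, -0.16 to 0.071 for Rrm1 and -0.12 to 0.30 for Chaf1a. No paired analysis was possible because the mouse numbers differ between the groups.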
